A study of Oryza sativa with 6 samples.

Results

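Among the stretches of the rice genome at which histone H3 acetylated at lysine 9 (H3K9ac) was called in every library, 874 carried more than 1 local maximum of signal, and these multi-summit regions are described here. Called intervals of the 6 peak lists on the 12 nuclear chromosomes were merged where they overlapped by at least 1 bp. Of the 17468 merged regions, 2657 were called in all 6 lists, and a region was kept when, in at least 2 lists, a single called interval inside it held 2 or more summits. The 874 regions make up 32.9% of the always called regions and 5.0% of all merged regions. The regions were thus chosen by the calls and the number of summits in these lists, and both are given below as descriptions without a test. Positions are on build IRGSP-1.0, counted from 1.

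The libraries came from leaf nuclei of rice (Oryza sativa) seedlings 20 days old, profiled with an antibody against H3K9ac by CUT&Tag, a method that inserts sequencing adapters into chromatin where the antibody has bound. Seedlings had been infested with the fall armyworm Spodoptera frugiperda, a leaf-chewing caterpillar, for 3 h or for 12 h, or were left uninfested as control. Each of these 3 groups had 2 libraries. No source used here says whether the replicates came from separate plants, so the spread behind each p-value may be only technical. The sample labels give leaf, while the series' design line speaks of whole seedlings. The leaf label was not checked against marker genes, because no annotation of the build was used.

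Acetylation of H3 is added by histone acetyltransferases such as GCN5 and removed by histone deacetylases. In plants, H3K9ac lies mainly on the nucleosomes around the transcription start sites of active genes. A nucleosome-poor promoter can part the acetylated nucleosomes before a start site from those after it, and divergent promoters or closely spaced genes can bring several acetylated stretches together. A peak caller reports one broad interval with several summits where neighbouring maxima stay joined above the threshold. Which genes the multi-summit regions hold was not analysed here.

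The 6 lists held 5079 to 13949 nuclear peaks in 4671 to 12234 intervals, and 7.40 to 12.5% of those intervals had several summits. Infested lists were the longer ones. Read totals are not given. The coverage at each summit was recovered as a whole number of fragments from the authors' fold enrichment and p-value, for 100% of nuclear peaks. At the strongest summit of the multi-summit regions the median coverage was 26 and 27 fragments in the 3 h libraries, 24 and 24 in the 12 h libraries, and 21 and 21 in the control libraries. At the other 1783 always called regions it was 21 and 22 fragments after 3 h, 18 and 18 after 12 h, and 17 and 16 in control. A summit of this height rests on few fragments, which limits how exactly its place and fold are known.

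Many multi-summit regions met the rule narrowly. Exactly 2 lists showed several summits in 386 of them (44.2%), 3 lists in 244, 4 lists in 142, 5 lists in 74 and all 6 lists in 28 (3.20%). A further 684 always called regions had several summits in 1 list and fell just outside, and 1099 had them in none. The median merged width grew along this scale. It was 996 bp with several summits in no list, 1221 bp in 1 list, 1381.5 bp in 2, 1571 bp in 3, 1642 bp in 4, 1849 bp in 5 and 2007 bp in all 6. The strongest region on either side of the limit was as follows. Just inside, chromosome 10 from 20736694 to 20738078 had folds of 6.41 and 6.48 after 3 h, 6.46 and 6.99 after 12 h and 6.45 and 6.54 in control, with 2 summits in 3 h replicate 2 and 12 h replicate 1. Just outside, chromosome 6 from 10479262 to 10480737 had folds of 8.35 and 9.19 after 3 h, 7.92 and 7.39 after 12 h and 7.85 and 7.70 in control, with 2 summits in control replicate 2 alone. The folds are the authors' own values for a peak within its list.

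The region with most summits, on chromosome 2 from 7221286 to 7224493, was also the widest by mean called length over the 6 lists. It held 4 and 5 summits after 3 h, 3 and 4 after 12 h and 3 and 3 in control, over a called length of 2689 to 3035 bp in the 6 libraries. Its highest folds were low, at 3.38 and 3.19 after 3 h, 3.94 and 3.48 after 12 h and 3.21 and 3.10 in control, although 50 to 60 fragments covered that summit. Summits of 5 lists gathered within 100 bp of position 7222247, and those of 5 lists within 100 bp of 7223969. The ranges of called length and of fold in infested and control libraries overlapped.

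On chromosome 7, from 24348457 to 24351574, the shape differed between the groups. The infested libraries called 3039 and 3111 bp with 5 and 4 summits after 3 h, and 2988 and 2910 bp with 5 and 4 summits after 12 h. The control libraries called 1027 and 1153 bp in its right-hand part, with 1 summit each. The strongest infested summits were covered by 57 and 60 fragments after 3 h and 57 and 67 after 12 h, against 26 and 26 in control. The folds of infested and control libraries overlapped, at 2.93 and 3.17 after 3 h, 3.06 and 3.21 after 12 h and 3.73 and 3.20 in control. Their ranks within each list did not overlap. As percentiles among the always called regions they were 3.42 and 6.74 after 3 h, 3.01 and 5.27 after 12 h and 44.0 and 11.7 in control.

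Longer infested calls were also seen on chromosome 12 from 27109081 to 27111989. Called length was 2535 and 2293 bp after 3 h and 2771 and 2843 bp after 12 h, against 1064 and 1518 bp in control. The infested libraries had 3 summits, or 4 in 12 h replicate 2, and the control libraries had 2 each. The leftmost summit, near 27109697 in 5 lists, was the strongest in all 6, with folds of 4.16 and 4.09 after 3 h, 4.47 and 4.58 after 12 h and 4.73 and 4.61 in control. The infested calls thus ran further to the right of a leading summit that was strongest in every list. That summit was covered by 49 and 51 fragments after 3 h and 57 and 67 after 12 h, against 24 and 26 in control. Its fold percentile within the list was 39.4 and 36.2 after 3 h and 39.3 and 44.3 after 12 h, against 82.6 and 70.8 in control.

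The other regions among the 8 with most summits averaged 2.83 to 3.33 summits over the 6 lists. They lay on chromosome 2 from 28159348 to 28162009, chromosome 1 from 5512231 to 5514541 and from 12922371 to 12924863, chromosome 5 from 19868475 to 19870819 and chromosome 11 from 6383056 to 6385584. The region on chromosome 1 from 12922371 was broken into separate intervals in every list, 3 of them in 3 h replicate 2 and 2 in each other library. Such breaks were common. At least 1 list split the region into separate intervals at 226 of the 874 multi-summit regions (25.9%) and at 166 of the 1783 other always called regions (9.31%).

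**Figure D1:**
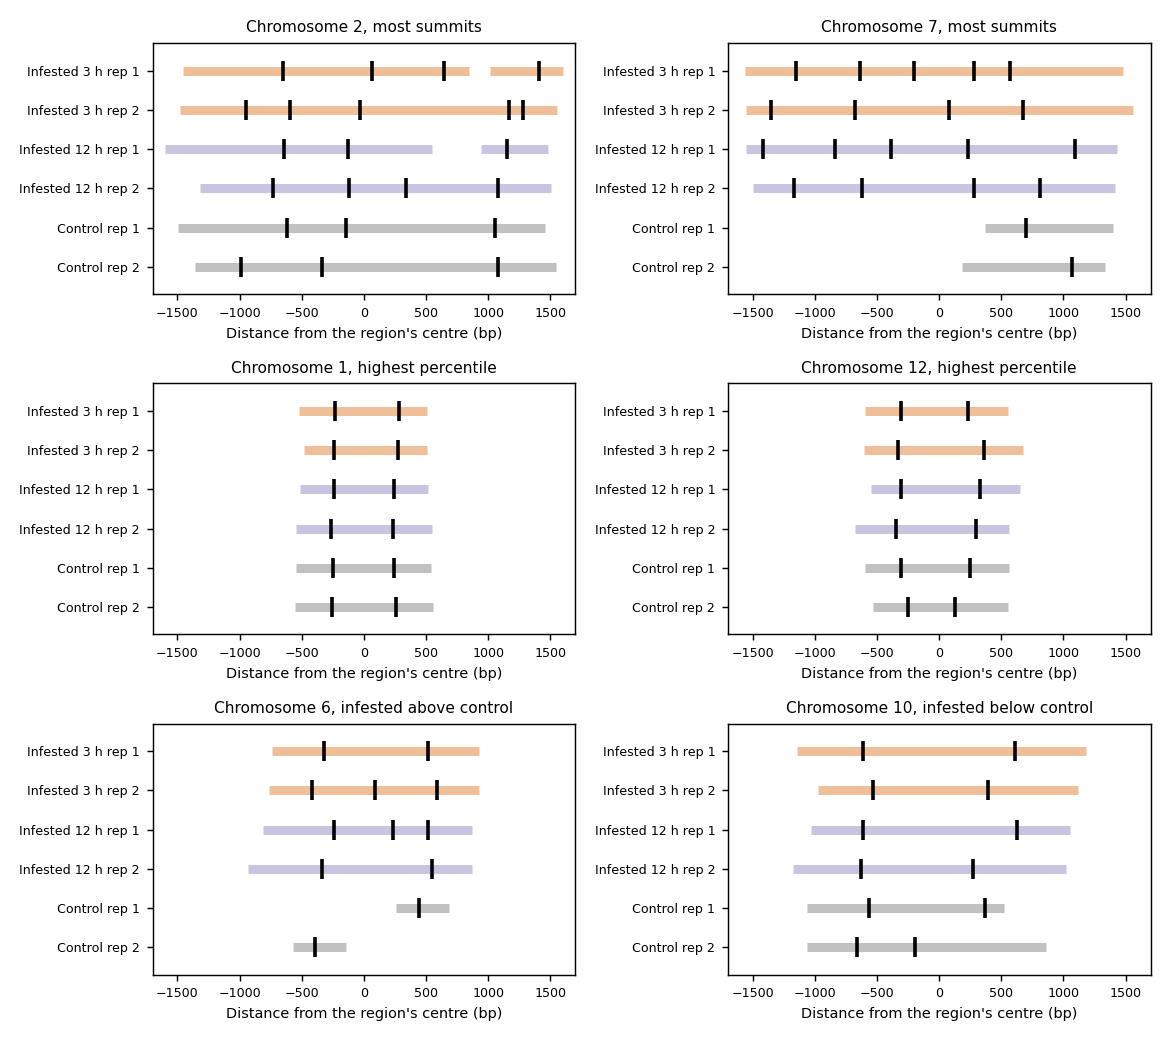
Called intervals (bars) and summits (black ticks) in each library at 6 multi-summit regions, against the distance in bp from the centre of the merged region; the top row shows the regions of chromosomes 2 and 7 with most summits, the middle row regions of chromosomes 1 and 12 with a stable pair of summits, and the bottom row the region of chromosome 6 with the largest positive difference in fold percentile between infested and control libraries and a region of chromosome 10 among the 6 with the largest negative ones. Control calls on chromosome 7 cover 1027 and 1153 bp, and infested calls 2910 to 3111 bp.

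The 8 strongest multi-summit regions by mean fold rank had 1 or 2 summits in each list, and at several of them the summits kept their places. Chromosome 1 from 33578208 to 33579322 ranked highest, with 2 summits in each of the 6 lists. Its highest fold was 8.10 and 9.34 after 3 h, 10.8 and 8.79 after 12 h and 10.6 and 10.9 in control. The left summit lay between 33578501 and 33578535 and the right one between 33578997 and 33579048 in every library, and the left was the stronger in each. The middle positions of these summits were 498 bp apart. The ranges of fold in infested and control libraries overlapped.

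Chromosome 10 from 20463288 to 20464780, chosen after its values were seen, was the other region at which 2 places were each supported by all 6 lists. Those places, 20463985 and 20464481, were 496 bp apart. On chromosome 12 from 27143525 to 27144873 all 6 lists had 2 summits, with folds of 6.0 and 6.79 after 3 h, 6.91 and 6.98 after 12 h and 5.63 and 6.07 in control. Here the right-hand summit was the stronger after 12 h, and the left-hand one after 3 h and in control. Chromosome 7 from 1669391 to 1670805 had folds of 9.03 and 8.08 after 3 h, 9.80 and 9.11 after 12 h and 10.3 and 8.88 in control. Its summits gathered near 1669703 and 1670308 in 5 lists each. Chromosome 11 from 14351129 to 14352163 had folds of 7.19 and 6.51 after 3 h, 6.83 and 8.41 after 12 h and 6.46 and 5.43 in control, with summits of 5 lists near 14351432 and of 5 near 14351874. The other 4 of the 8 strongest lay on chromosome 10 from 20736694, on chromosome 12 from 20018732 and from 8611533, and on chromosome 6 from 12873389.

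Such fixed pairs were the exception. At least 2 separate places, each with a summit within 100 bp in 4 or more lists, were found at 117 of the 874 regions (13.4%), against 5 of 1783 other always called regions (0.280%). The rule allows the others several summits in 1 list at most, which largely fixes this contrast, so it is a description. With support from 5 lists the number was 21 (2.40%), and with all 6 lists it was 2 (0.229%). At 534 regions (61.1%) 1 place had the support of 4 lists, and at 223 (25.5%) none had. Neighbouring places with support from 4 lists were a median of 573 bp apart (quartiles 447 and 824.5 bp, 119 distances).

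The strongest summits of a multi-summit region in 2 lists lay within 100 bp of each other in 34.1% of cases for replicates (32.2 to 35.4% over 3 pairs of libraries). For libraries of different groups the share was 32.4% (30.1 to 37.6% over 12 pairs). At the other always called regions, where most intervals have 1 summit, the shares were 50.6% for replicates and 48.8% for different groups. Averaged over its 5 partners, a library's share was 33.4 ± 0.162% after 3 h, 32.6 ± 1.72% after 12 h and 32.3 ± 0.744% in control (SD, n = 2 each). The 3 h and 12 h libraries together differed from control by 0.70 percentage points (exact permutation p = 0.4, adjusted p = 0.6 over 24 tests). Counting all summits, a partner was found in 35.8 ± 0.807% of cases after 3 h, 36.9 ± 0.795% after 12 h and 39.4 ± 0.822% in control (SD, n = 2 each). That difference of −3.09 percentage points gave the smallest p of its exact permutation test, 0.133 (adjusted p = 0.533). Infested lists have more summits, and the part of this in the difference was not tested. With every list cut to the length of the shortest, the difference was 0.234 points for both times. It was then 1.14 after 12 h and −0.669 after 3 h. With peaks of −log10 q of at least 5 it was −5.34 points for both times. For regions with several summits in at least 3 lists it was −2.87. Leaving out each library in turn gave −3.86 to −2.41 for both times.

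Neighbouring summits of an interval lay a median of 500 to 562 bp apart over the 6 libraries. The median distance was 516.5 and 500 bp after 3 h, 512 and 562 bp after 12 h and 532 and 542 bp in control. Both 3 h libraries lay below both control libraries, and the 12 h libraries lay on either side of them. Group means were 508.25 ± 11.7 bp after 3 h, 537 ± 35.4 bp after 12 h and 537 ± 7.07 bp in control (SD, n = 2 each). The log2 ratio to control was −0.08 after 3 h (exact permutation p = 0.333, the smallest 2 libraries against 2 can give; adjusted p = 0.533) and 0.00 after 12 h (exact p = 1). The 12 h and 3 h means differed by a log2 ratio of 0.08 (exact permutation p = 0.667). The direction after 3 h turned with the setting. The log2 ratio was 0.0014 with peaks of −log10 q of at least 5, 0.00065 between the outermost summits and 0.0452 for regions with several summits in all 6 lists. Between 274 distances in control replicate 1 and 728 in 3 h replicate 2 entered these medians. The quartiles overlapped widely, from 405 to 684 bp over the 6 libraries.

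**Figure D2:**
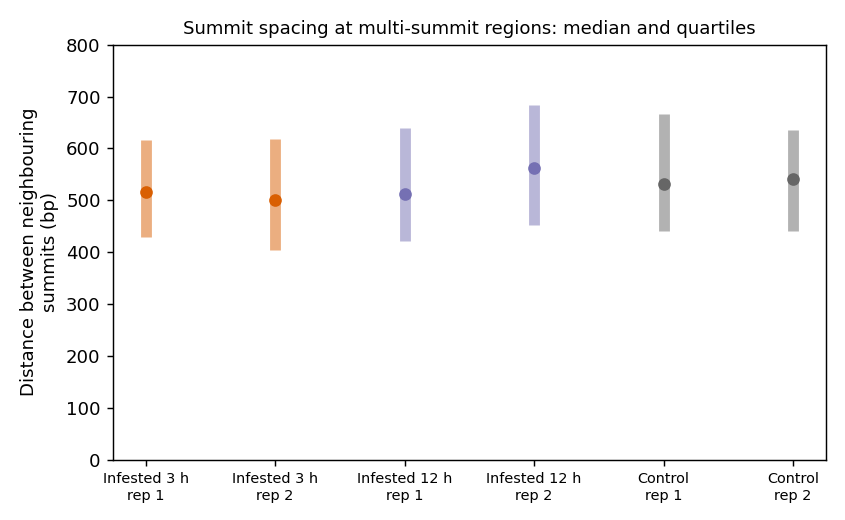
Distance in bp between neighbouring summits of a called interval at the multi-summit regions, by library, with the median (point) and the range from the lower to the upper quartile (bar). Medians lie between 500 and 562 bp, and the quartile ranges of all 6 libraries overlap.

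The summits of an interval were close in strength. In intervals with several summits the fold of the second was a median of 0.857 and 0.847 of the strongest after 3 h, 0.858 and 0.843 after 12 h and 0.876 and 0.858 in control. Where there were exactly 2, the right-hand one on the chromosome was the stronger in 51.9 to 53.9% of intervals over the 6 libraries. Replicates had the same side stronger in 64.9% of 242 regions after 3 h (95% exact binomial interval 58.5 to 70.9%), 58.6% of 181 after 12 h (51.0 to 65.8%) and 57.3% of 89 in control (46.4 to 67.7%). These intervals cover counting error only. Between libraries of different groups the share ran from 46.3 to 65.2%.

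Several summits were more frequent at these regions in infested libraries, the values that the rule used. They were found at 548 and 598 of the 874 regions after 3 h, 470 and 464 after 12 h, and 254 and 276 in control. In percent this is 65.6 ± 4.05 after 3 h, 53.4 ± 0.485 after 12 h and 30.3 ± 1.78 in control (SD, n = 2 each). The mean number of summits per region was 1.79 and 1.90 after 3 h, 1.71 and 1.63 after 12 h and 1.40 and 1.40 in control. Intervals with 4 or 5 summits at these regions numbered 4 and 15 after 3 h and 6 and 5 after 12 h, against 1 and 0 in control. The other always called regions showed several summits in 8.30 and 12.6% of cases after 3 h, 6.28 and 5.16% after 12 h and 3.53 and 2.52% in control, the same order of groups. Infested lists are longer, and the part of list length in the excess of summits was not tested. The excess per region was 0.357 for both times against control. It was 0.0973 with every list cut to the length of the shortest, which left 388 regions. With peaks of −log10 q of at least 5, which left 218 regions, it was 0.336.

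To see whether several summits recur in a list whose summits the choice did not use, regions were chosen anew with each list's summits left out in turn. This check was added after the data were seen. The list left out still counted towards which regions were always called. Of the regions with several summits in at least 2 of the other 5 lists, the list left out also had several summits at 52.8 and 59.2% for 3 h, 45.1 and 44.7% for 12 h and 24.6 and 25.7% for control. Of the remaining always called regions the shares were 16.8 and 21.3% for 3 h, 13% and 11.7% for 12 h, and 6.27 and 6.16% for control. The difference averaged 29.5 ± 8.43 percentage points (SD, n = 6) and was positive in 6 of 6 libraries (exact sign-flip permutation p = 0.0312, the smallest 6 libraries can give). With the choice made on the 4 lists of the other groups it averaged 30.2 ± 9.38 points (SD, n = 6; exact sign-flip permutation p = 0.0312; adjusted p = 0.0312 over both checks). The 6 values share regions and lists, so they are not independent of each other. The sign-flip p-values treat them as if they were, and thus cannot decide the question.

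**Figure D3:**
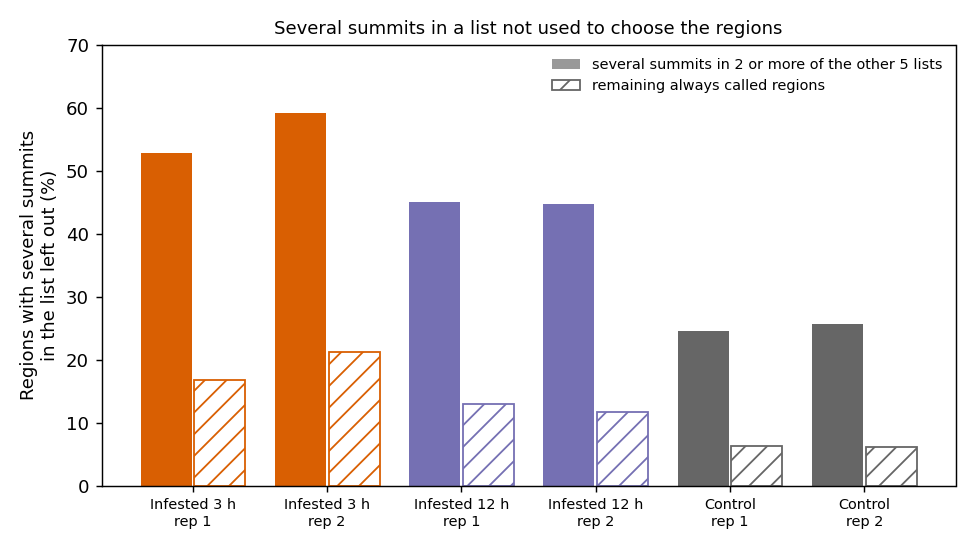
Share of always called regions with several summits in each list when the summits of that list were not used to choose them. Filled bars show regions with several summits in 2 or more of the other 5 lists, and hatched bars the remaining always called regions. Filled bars range from 24.6% in control replicate 1 to 59.2% in 3 h replicate 2, and each exceeds its hatched partner.

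Width moved with this recurrence. Regions chosen without the list were called over 1241 and 1299 bp after 3 h, 1202.5 and 1257 bp after 12 h and 951 and 1017 bp in control, by their median. The remaining regions were called over 819.5 and 868 bp after 3 h, 823 and 855 bp after 12 h and 625 and 663 bp in control. Among regions called in 1 interval of 1000 to under 1200 bp, the chosen ones had several summits in 47.9 and 47.3% of cases after 3 h, 45.0 and 33.8% after 12 h and 37.4 and 36.6% in control. The remaining regions of that width had them in 33.9 and 37.3% after 3 h, 25.2 and 19.6% after 12 h and 29.4 and 25.3% in control. The chosen regions were thus higher in each of the 6 libraries at about equal width.

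Over every nuclear interval, the share with several summits grew with width. Intervals of 600 to under 800 bp had several summits in 4.62 and 6.02% of cases after 3 h, 2.36 and 0.591% after 12 h and 3.07 and 1.23% in control. At 1200 to under 1400 bp the shares were 58.8 and 61.9% after 3 h, 50.7 and 49.2% after 12 h and 48.4 and 41.6% in control. Both 3 h libraries lay above the control and 12 h libraries in each of these ranges. From 800 to under 1000 bp the 12 h libraries, with 16.9 and 12.4%, did not stand apart from control, with 17.5 and 13.4%.

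**Figure D4:**
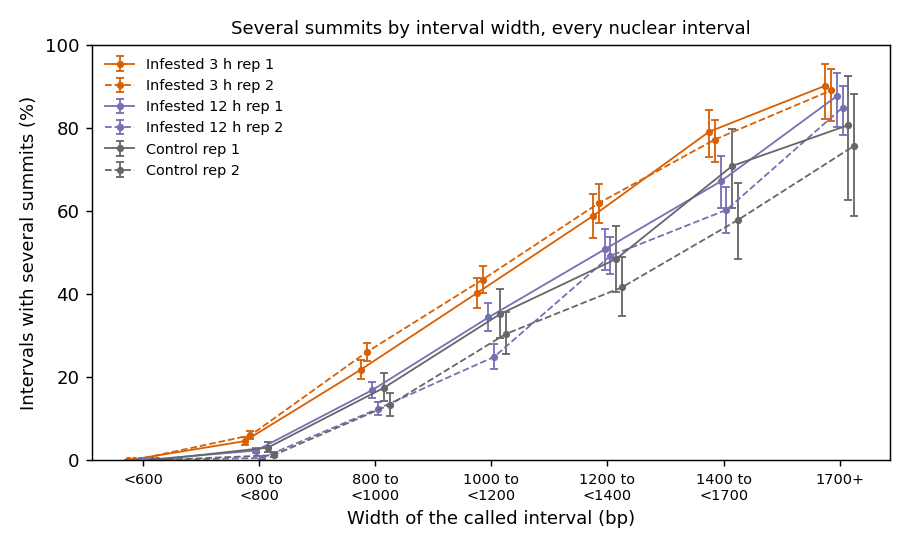
Share of called nuclear intervals with several summits by interval width, per library, with 95% exact binomial intervals that cover counting error only. The share grows from near 0 below 600 bp to between 75.7 and 90.1% at 1700 bp and above, and the 3 h libraries lie highest from 600 to under 1700 bp.

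Multi-summit regions were called over more bases after infestation, as were the other always called regions. Their median called length was 1211 and 1269 bp after 3 h, 1200 and 1254 bp after 12 h and 960 and 1025 bp in control. Every infested library lay above both control libraries. Means were 1240 ± 41.0 bp after 3 h, 1227 ± 38.2 bp after 12 h and 992.5 ± 46.0 bp in control (SD, n = 2 each). The log2 ratio to control was 0.32 after 3 h and 0.31 after 12 h (exact permutation p = 0.333 for each, adjusted p = 0.533). Both times together gave 0.31 (exact permutation p = 0.133, the smallest 4 libraries against 2 can give; adjusted p = 0.533). Of the 874 regions, 749 had several summits in at least 2 infested lists. Wider intervals more often had several summits, and the p-values do not allow for this choice. Among 529 regions with several summits in at least 1 control list, medians were 1176 and 1256 bp after 3 h. They were 1141 and 1210 bp after 12 h and 1086 and 1147 bp in control, so 12 h and control overlapped. That choice was added after the data were seen. At the always called regions outside the 874 the log2 ratios were 0.35 after 3 h and 0.35 after 12 h. Relative to those regions, the multi-summit regions were wider by a log2 factor of 0.61 ± 0.013 after 3 h, 0.59 ± 0.0035 after 12 h and 0.64 ± 0.011 in control (SD, n = 2 each). The factor was lower in all 4 infested libraries than in both controls, by 0.04 on average (exact permutation p = 0.133, adjusted p = 0.533), and its size rested on single libraries. The difference was 0.0032 in the other direction without control replicate 1 and −0.01 without control replicate 2, and between −0.06 and −0.09 without any 1 of the 4 infested libraries. With every list cut to the length of the shortest, the log2 ratio of called length was 0.22 for both times, against 0.19 with peaks of −log10 q of at least 5 and 0.12 for regions with several summits in all 6 lists. With the lists cut, the difference in the factor was −0.14. That difference was −0.11 for regions with several summits in at least 3 lists and −0.27 for those with them in all 6.

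To compare strength across lists, each region's highest fold was ranked within its list among the 2657 always called regions, as a percentile in which 100 is the strongest. Multi-summit regions had a median percentile of 45.4 and 44.3 after 3 h, 44.5 and 45.0 after 12 h and 51.0 and 50.6 in control. They were thus near the middle of the ranking, and lower in every infested library than in both controls. The other always called regions had 52.5 and 53.6 after 3 h, 52.9 and 53.5 after 12 h and 49.4 and 49.8 in control. Group means of the multi-summit regions were 44.9 ± 0.752 after 3 h, 44.8 ± 0.326 after 12 h and 50.8 ± 0.313 in control (SD, n = 2 each). The difference was −5.91 points after 3 h and −6.02 after 12 h (exact permutation p = 0.333 for each, the smallest possible, adjusted p = 0.533). Both times together it was −5.97 points (exact permutation p = 0.133, the smallest possible, adjusted p = 0.533), and 12 h against 3 h it was −0.11 (exact permutation p = 1). With every list cut to the length of the shortest, it was −12.7 points for both times. For the regions with several summits in all 6 lists it was −18.2 points. The main rule rests unevenly on the groups, as 749 of the 874 regions had several summits in at least 2 infested lists. Summits and folds come from the same peaks, and the p-values do not allow for this choice.

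The lower rank was one of fold and was not seen in coverage. Ranked by summit coverage instead, a setting added after the data were seen, multi-summit regions had median percentiles of 67.2 and 63.3 after 3 h, 67.1 and 67.2 after 12 h and 64.2 and 65.5 in control. The difference to control was then 1.35 points upward for both times together (exact permutation p = 0.4). The fold was read as the summit divided by a local background, with the same small constant added to each. Whether an input entered that background is not given. Divided by the lowest in the list, that local background had a median of 2.46 and 2.40 after 3 h, 2.78 and 2.97 after 12 h and 1.96 and 2.22 in control at the multi-summit regions. At the other always called regions it was 1.74 and 1.76 after 3 h, 1.92 and 1.98 after 12 h and 1.52 and 1.62 in control. The part of the local background in the lower fold rank was not tested.

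The lower rank was also seen within a common range of merged width. Within the middle range of merged width, from 1322.5 to 1769.75 bp, 436 multi-summit regions had percentiles of 47.1 and 46.7 after 3 h, 47.1 and 47.0 after 12 h and 52.9 and 53.1 in control. In the same range 326 other always called regions had 50.9 and 49.0 after 3 h, 54.0 and 50.5 after 12 h and 49.9 and 52.2 in control. Called length was not matched. In each library its median was longer at these multi-summit regions, with 974 to 1281 bp over the 6 libraries against 758.5 to 1147 bp. The 28 regions with several summits in all 6 lists had 44.2 and 45.6 after 3 h, 36.1 and 37.4 after 12 h and 56.9 and 61.0 in control.

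**Figure D5:**
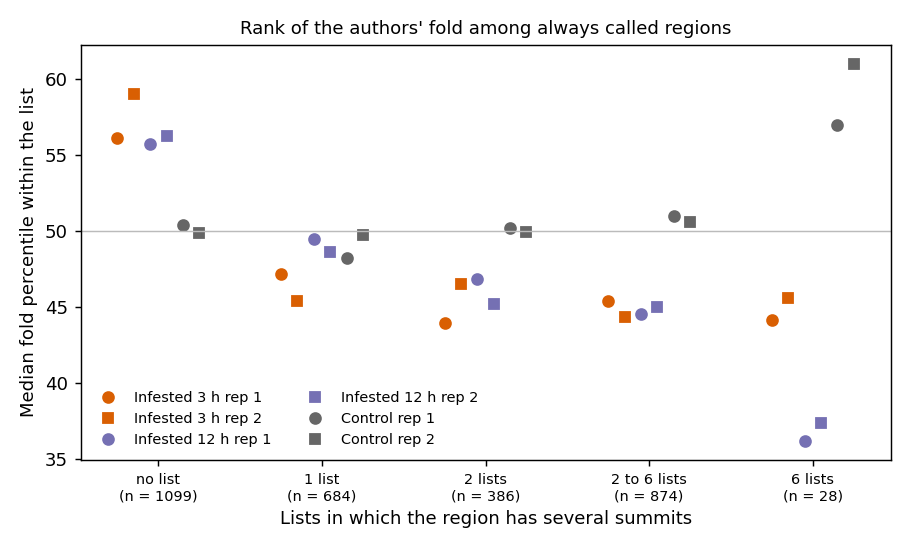
Median percentile of the authors' fold within each list among 2657 always called regions, by the number of lists in which a region has several summits; circles are replicate 1 and squares replicate 2, and the line marks 50. Infested libraries lie above control for regions with several summits in no list and below it for the multi-summit regions, where medians are 44.3 to 45.4 against 50.6 and 51.0.

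Region by region, fold ranks that were lower in every infested library were more frequent than higher ones. All 4 infested libraries lay below both controls at 171 multi-summit regions (19.6%), against 14.5% of all always called regions. All 4 lay above both controls at 78 (8.92%), against 10.2% of all always called regions. At 3 h, 279 regions (31.9%) were below both controls and 139 (15.9%) above, against 23.6% below and 19.9% above among all always called regions. At 12 h, 261 regions (29.9%) were below both controls and 154 (17.6%) above, against 24.1% below and 21.3% above among all always called regions. Both times share the same control libraries. Both 12 h libraries were below both 3 h libraries at 171 regions (19.6%) and above them at 158 (18.1%), close to the 19.5% and 18.1% of all always called regions. Ranked by coverage, 15.4% were below and 18.3% above control at both times, against 14.8% below and 15.9% above among all always called regions, so the direction of the split turns with the value ranked. Without control replicate 1, 33.1% were below and 21.3% above at both times, against 25.8% below and 24% above among the regions always called in the other 5 lists. Without control replicate 2, 32.8% were below and 21.2% above, against 26.5% below and 24.5% above.

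The largest positive difference was on chromosome 6 from 10469459 to 10471318. Its percentile was 78.8 and 74.0 after 3 h and 72.9 and 63.3 after 12 h, against 4.05 and 2.15 in control. Summit coverage was 34 and 41 fragments after 3 h and 34 and 37 after 12 h, against 9 and 9 in control. The infested libraries called 1671 to 1797 bp with 2 or 3 summits, and the control libraries called 426 and 434 bp with 1 summit each. The control calls did not overlap each other: control replicate 1 called the right-hand side and control replicate 2 the left. Merging had joined them through the infested calls. Over all multi-summit regions, 833 of 874 (95.3%) held at least 1 base called in all 6 lists, and 24 (2.75%) had no base called in both controls.

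The next largest was on chromosome 7 from 25591319 to 25592799, with percentiles of 77.1 and 58.0 after 3 h, 85.1 and 76.1 after 12 h and 23.4 and 6.87 in control. On chromosome 10 from 16036270 to 16038169, coverage was 36 and 35 fragments after 3 h and 40 and 34 after 12 h, against 12 and 12 in control. On chromosome 2, regions from 15141888 to 15143658 and from 7760765 to 7762610 were higher in infested libraries by 53.5 and 51.2 percentile points on average, and on chromosome 6 the region from 8821882 to 8822979 was higher by 50.1. In these 6 regions the groups did not overlap, by the choice of them.

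The largest negative difference was on chromosome 6 from 6027887 to 6029237, with percentiles of 22.9 and 24.3 after 3 h and 8.66 and 32.9 after 12 h, against 93.5 and 96.4 in control. Coverage of its strongest summit was 22 and 22 fragments after 3 h and 11 and 12 after 12 h, against 41 and 43 in control. Chromosome 6 from 27620134 to 27621573 had 29 and 28 fragments after 3 h and 17 and 17 after 12 h, against 44 and 51 in control. There the infested libraries had 2 summits each and the control libraries 1. On chromosome 12, the region from 24212861 to 24214262 had 18 and 21 fragments after 3 h and 10 and 12 after 12 h, against 34 and 38 in control. The region from 861859 to 863094 had 27 and 35 fragments after 3 h and 11 and 12 after 12 h, against 41 and 47 in control. On chromosome 3 the region from 4660853 to 4661878 had percentiles of 16.8 and 25.3 after 3 h and 11 and 2.48 after 12 h, against 87.4 and 71.8 in control. At these 5 regions both fold rank and coverage were lower in each infested library than in control, except chromosome 3, where 3 h replicate 2 had 31 fragments and control replicate 2 also had 31.

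At the last of these 6 regions fold rank and coverage differed in direction. Chromosome 10 from 22857246 to 22859605 had 2 summits in each of the 6 lists, with a place at 22857814 shared by all of them. Its percentile was 32.1 and 39.0 after 3 h and 39.2 and 22.0 after 12 h, against 95.3 and 80.0 in control. Coverage went the other way, with 73 and 73 fragments after 3 h and 76 and 71 after 12 h, against 48 and 40 in control. Called length was 2321 and 2096 bp after 3 h and 2082 and 2200 bp after 12 h, against 1585 and 1922 bp in control.

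Multi-summit regions were found on all 12 chromosomes. They made up 30.6 to 37.0% of the always called regions on 11 of the chromosomes, and 29 of 149 (19.5%, 95% exact binomial interval 13.4 to 26.7%) on chromosome 11. The always called regions of chromosome 11 were narrower, with a median merged width of 1075 bp, against 1211 bp on the other chromosomes together. They had several summits in 17.4 and 19.5% of cases after 3 h, 14.1 and 15.4% after 12 h and 9.40 and 9.40% in control. On the other chromosomes the shares were 26.7 and 31.6% after 3 h, 22.4 and 21.3% after 12 h and 12.1 and 12.2% in control. These are the values that the rule used, and they describe the same lower share by library. The 29 regions were spread along chromosome 11, with 3 to 8 of them in each stretch of 5 Mb. All always called regions of that chromosome had median fold percentiles of 50.4 to 68.5 over the 6 libraries.

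The median distance to the next merged region was 8363 bp for the multi-summit regions, against 7526 bp for the other always called regions, and 20 (2.29%) had a neighbour within 1000 bp, against 110 (6.17%). Neighbouring multi-summit regions on a chromosome were a median of 221384 bp apart, and 5 of the 862 such distances were at most 5 kb.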

How the data were processed

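The authors deposited a separate peak list for every library. The submitters' processing notes name MACS2 2.1.0, Bowtie 1.1.2, Trimmomatic 0.33 and bcl2fastq 2.17, with build IRGSP-1.0. Their settings, duplicate handling and any input are not given in the sources used. Each deposited row gives a fold, a −log10 p-value, a −log10 q-value (at least 1.30, a q of 0.05), a whole-number score and the summit. The fold was read as the ratio of summit coverage to a local background, with the same small constant added to each. The score was not used.

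Rows with the same start and end were taken as 1 interval with several summits. Intervals were merged at an overlap of at least 1 bp. Called length is the summed interval length inside a merged region. Coverage was recovered as the whole number of fragments that matched fold and p-value within 0.001 on the −log10 scale, and tested on simulated data. Values per library were compared by two-sided exact permutation tests, with Benjamini-Hochberg adjustment over 24 tests (6 measures, 4 comparisons). Python 3.11.15, numpy 2.4.6, pandas 2.3.3, scipy 1.17.1 and matplotlib 3.10.9 were used.

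Named regions were the 8 with most summits, the 8 of highest mean percentile, the 6 largest differences in each direction among those whose libraries do not overlap, the strongest just inside and outside the rule, and the widest. The regions and rules were chosen with earlier results of these data known. Gene positions, gene lists, leaf markers and sequences were planned and not analysed here, because no annotation of the build was used. Whether same-numbered libraries were made together is not given. Their deviations correlated at −0.02 to 0.03.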

Additional observations from a re-analysis of the deposited data

Results flagged for a closer look

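At 9 multi-summit regions both 3 h libraries ranked above both controls in fold percentile and both 12 h libraries below them, and at 11 regions the order was the opposite. The opposite movement of the 3 h and 12 h libraries drew attention to these regions, and the difference between the times was not tested region by region. As shares they are 1.03% and 1.26% of the 874 regions, against 1.13% and 0.979% of all always called regions. Both times use the same control libraries.

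Of the 11, the region of chromosome 2 from 30625543 to 30626630 had percentiles of 19.7 and 19.8 after 3 h of infestation, and 84.4 and 83.2 after 12 h, against 76.8 and 61.0 in control. Coverage of its strongest summit was 19 and 22 fragments after 3 h of infestation, and 26 and 26 after 12 h, against 21 and 21 in control. The region of chromosome 9 from 18090133 to 18092228 had percentiles of 20.3 and 43.6 after 3 h of infestation, and 75.2 and 81.6 after 12 h, against 56.5 and 44.0 in control. Coverage there was above control at both times. It was 31 and 37 fragments after 3 h, 39 and 44 after 12 h and 26 and 22 in control. The region of chromosome 3 from 11974369 to 11976489 had 11.5 and 13.8 after 3 h of infestation, and 59.5 and 54.6 after 12 h, against 35.2 and 31.0 in control. Its coverage was lowest after 12 h, with 17 and 16 fragments after 3 h, 15 and 13 after 12 h and 19 and 19 in control.

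Of the 9, the region of chromosome 5 from 19868475 to 19870819 is also among those with most summits. Its percentiles were 49.3 and 67.3 after 3 h of infestation, and 25.5 and 26.9 after 12 h, against 30.7 and 29.0 in control. Its coverage was above control at both times, with 37 and 45 fragments after 3 h and 38 and 38 after 12 h. Control had 26 and 24. The region of chromosome 2 from 5966339 to 5967675 had 80.2 and 82.4 after 3 h of infestation, and 48.4 and 36.9 after 12 h, against 49.5 and 68.7 in control. Its coverage was 23 and 24 fragments after 3 h. After 12 h it was 16 and 13, which overlapped control at 13 and 17. The regions named here were picked after their values were seen.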

How the results depend on the processing

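Exact tests of 2 or 4 libraries against 2 cannot reach 0.05, so directions and sizes are compared; few fragments per summit limit summit positions and folds. Differences below are infested minus control, in the order 3 h, 12 h and both times, and then 12 h minus 3 h; widths and spacings are log2 ratios. Fold percentiles stayed lower and called widths higher in infested libraries, at each time, under every setting run except ranking by coverage. Shuffling within replicate number (replicate block) gave exact permutation p of 0.222 to 1, against 0.133 to 1 without it, and the same differences; same-numbered libraries did not deviate together. Coverage ranking and the choice on control lists were added after the data were seen. The choice on control lists kept regions with several summits in at least 1 control list, and is uneven between the groups. Its median percentiles were 46.7 and 44.1 after 3 h, 45.6 and 45.0 after 12 h and 54.0 and 53.6 in control. The part of the choice itself in these ranks was not tested. The main rule is uneven as well, because more multi-summit regions had several summits in infested than in control lists. Planned distances of 500 bp and 2 kb to genes were not run. The cause of the shifts below was not tested, but smaller sets and fewer libraries are part of the construction.

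Ranked by coverage, the percentile differences were 0.405, 2.29, 1.35 and 1.88. Regions above were 28.0, 31.5, 18.3 and 26.8%, and below 27.3, 26.5, 15.4 and 23.2%. Of all always called regions 24.8, 28.0, 15.9 and 23.8% were above, and 25.2, 26.2, 14.8 and 23.0% below. With peaks of −log10 q of at least 5 there were 218 regions. The share above was 12.4% at 3 h, 14.2% at 12 h and 6.42% for both, and below 26.6% at 3 h and 17.0% at both. Spacing differed by 0.0014 at 3 h and 0.0376 for both. Between 12 h and 3 h, width differed by 0.0209, width relative to other regions by 0.0172 and percentile by 0.595. Recurrence of the strongest summit differed by −2.06, −1.38, −1.72 and 0.688 points.

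With lists cut to the shortest (5079 peaks) there were 388 regions. Summits per region differed by 0.153, 0.0412, 0.0973 and −0.112. Above were 10.8, 11.9 and 5.67%, and below 38.9, 39.4 and 27.1%. Among all always called regions of that setting 20.3, 21.1 and 11.5% were above, and 24.9, 26.1 and 16.1% below. Width differed by 0.0077 between 12 h and 3 h, and recurrence of the strongest summit by 0.155 points. Recurrence of all summits differed by 1.14 at 12 h and 0.234 for both. Several summits in at least 3 lists left 488 regions, with 35.5, 33.8 and 22.7% below. Of all always called regions 23.6, 24.1 and 14.5% were below. Several summits in all 6 lists left 28 regions. Their summits differed by 0.196, 0.179, 0.188 and −0.0179. Above were 3.57% at 12 h, 3.57% at both and 7.14% for 12 h against 3 h, and below 42.9, 57.1, 28.6 and 35.7%. Of all always called regions 21.3, 10.2 and 18.1% were above, and 23.6, 24.1, 14.5 and 19.5% below. Spacing differed by 0.0452 at 3 h and 0.0575 for both. Between 12 h and 3 h, width differed by 0.0301 and relative width by 0.0400. With the outermost pair of summits, spacing differed by 0.00065 at 3 h and 0.0323 for both.

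Leaving out each library in turn gave 678 to 972 regions. Relative width differed by −0.0912 to 0.0028, −0.0983 to 0.0036, −0.0911 to 0.0032 and −0.0260 to 0.00081, and was above 0 against control without control replicate 1. Above were 13.4 to 31.1, 16.2 to 32.8, 9.24 to 21.3 and 18.8 to 36.8%, and below 32.4 to 47.0, 31.1 to 43.8, 23.3 to 33.1 and 18.6 to 37.0%. Among all always called regions the shares above were 19.9 to 36.1, 21.1 to 36.4, 13.4 to 24.5 and 18.0 to 34.4%. Their shares below were 23.4 to 38.4, 24.1 to 37.9, 17.1 to 26.5 and 18.7 to 35.0%, so the ranges widened there as well. Recurrence of the strongest summit differed by −0.286 to 2.46, −1.24 to 2.16, −0.0335 to 2.05 and −1.81 to 1.06 points. Summits per region differed by 0.409 to 0.539, 0.232 to 0.320, 0.331 to 0.413 and −0.240 to −0.116. Percentile differed by −2.52 to 1.49 and width by −0.0420 to 0.0156 between 12 h and 3 h.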
